A study of Mus musculus with 31 samples.

Results

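Hmgcs1, Idi1, Sqle, Lss, Cyp51 and Dhcr7, which encode enzymes of cholesterol synthesis, Insig1, which encodes a brake on the pathway, and Srebf2, which encodes its main transcription factor, were followed in mouse brain after an injection of oleic acid. They were found as the array probes that carry one of these gene names, which gave 9 probes for 8 genes of 25162 genes tested. Srebf2 had 2 probes and each of the others 1, and all 9 were well above background on 31 of 31 arrays. The brains came from 31 female C57BL/6 mice aged 6 weeks, each on 1 single-colour array, and no allele or pooling is named in the labels. All mice were anaesthetised with xylazine and ketamine and received 200 µl through the tail vein. This was physiological serum in 14 control mice. In the other 17 the injection gave oleic acid, a treatment used to injure the lung, dosed by weight at 1.2 µl/g. Brains were taken 1, 1.5, 3, 4, 18 or 24 h later. Serum groups held 3 mice at the 1 and 1.5 h times and 2 later. Oleic acid groups held 3, except for 2 at the 18 h time. No uninjected mice were analysed here, so a difference between times in serum mice includes whatever anaesthesia, injection and time of day bring.

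Cholesterol in the brain is made almost entirely within the brain, because plasma lipoproteins do not cross the blood-brain barrier, and much of it ends in myelin. Synthesis runs from acetyl-CoA through mevalonate and the isoprenoids to squalene, and from squalene through lanosterol to cholesterol. When sterols fall in the endoplasmic reticulum, SCAP escorts SREBP2 to the Golgi, where proteases release the fragment that enters the nucleus and binds sterol regulatory elements near most genes of the route. INSIG1 holds SCAP back when sterols are plentiful and is itself a target of SREBP proteins, so the mRNAs of this group are widely read as a report on cellular sterol.

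The start-site regions of Hmgcs1, Idi1 and Insig1 are shown because these genes came closest to a difference between times below. The 250 bases before each start are from RefSeq on GRCm38.p6, written on the strand of the gene, at chr13:119690101-119690350 for Hmgcs1, chr13:8885356-8885605 for Idi1 and chr5:28071162-28071411 for Insig1, all on the plus strand. Capitals mark a CCAAT box, the site bound by the NF-Y factor that works beside SREBP, or its reverse complement ATTGG, and in Hmgcs1 also the sterol regulatory element core.
Hmgcs1: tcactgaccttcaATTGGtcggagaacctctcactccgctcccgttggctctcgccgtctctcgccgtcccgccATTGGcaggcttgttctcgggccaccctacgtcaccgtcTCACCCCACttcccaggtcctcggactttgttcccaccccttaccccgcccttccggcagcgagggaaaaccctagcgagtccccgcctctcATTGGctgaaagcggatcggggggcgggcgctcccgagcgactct
Idi1: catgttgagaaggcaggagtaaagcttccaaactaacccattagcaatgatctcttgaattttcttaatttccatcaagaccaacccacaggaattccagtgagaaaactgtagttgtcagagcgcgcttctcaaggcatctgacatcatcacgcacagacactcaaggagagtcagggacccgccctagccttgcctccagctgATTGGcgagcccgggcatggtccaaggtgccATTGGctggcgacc
Insig1: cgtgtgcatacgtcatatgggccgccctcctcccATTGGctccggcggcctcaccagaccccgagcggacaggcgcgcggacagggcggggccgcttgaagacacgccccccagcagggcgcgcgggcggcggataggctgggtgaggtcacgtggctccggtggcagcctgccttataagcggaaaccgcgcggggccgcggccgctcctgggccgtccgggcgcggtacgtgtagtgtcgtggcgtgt
In all, 4 motifs were searched on both strands of this stretch, each spelled out below. TCACNCCAC, the sterol regulatory element core, was in 1 of the 7 genes with an entry, Hmgcs1, where it began 137 bases before the start. Over all 27025 genes with such stretches it was in 1.22%. CCAAT was in 7 of 7 against 37.5% of all genes, and GGGCGG, the Sp1 box, was in 7 of 7 against 35.4%. CACGTG, an E-box, was in Dhcr7 and Insig1 and in 6.86% of all genes. Dhcr7 had 3 start sites in the table and, like any gene with several, counted once for any of them. A match describes the letters and is not a measured binding site.

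Values below are log2 Cy3 signals of a gene relative to the 75th percentile of all probes on its array, so that 0 is that percentile. They are compared within a gene and not between genes, since probes differ in brightness. The 75th percentile of processed intensity ran from 306 to 813 over the arrays, 54.3% to 76.3% of an array's spots exceeded background clearly, and arrays correlated with each other at 0.968 to 0.995. Markers of neurons (8 of 8 measured), astrocytes (8 of 8) and oligodendrocytes (12 of 12) were present on all arrays, as the tissue label requires. Their mean log2 levels ran from 4.53 to 4.88, from 3.16 to 3.51 and from 3.36 to 3.81. Markers of single regions varied between mice. Gabra6, a receptor subunit of cerebellar granule cells, was lowest on 4 arrays, at -7.59 to -6.12, namely serum 1 h replicate 1, oleic acid 1.5 h replicate 2, serum 4 h replicate 2 and oleic acid 4 h replicate 3. The next were serum 1.5 h replicate 3 at -3.94 and serum 18 h replicate 1 at -2.85. Pituitary hormone genes (5 of 7 measured) had a mean level of 2.34 to 2.78 in 3 mice at 24 h, serum replicate 2 and oleic acid replicates 1 and 3, and at most -3.26 elsewhere. The arrays lay on 5 slides, and slides are tied to times. At 18 h the serum mice were on slide 4 and the oleic acid mice on slide 5, so treatment and slide cannot be told apart there. Treatments shared slides only in part at 3 other times. Serum and oleic acid mice were on slides 1 and 2 against 2 and 3 at 1.5 h. They were on slide 3 against 3 and 4 at 3 h, and on slides 2 and 5 against 5 at 24 h. Slide 2 was scanned on a different day from the rest. In bulk RNA, fewer cells of a type and less RNA per cell cannot be told apart.

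Oleic acid and serum mice had nearly the same mean level of each of the 8 mRNAs. Averaged over the 6 times, the oleic acid minus serum difference was 0.01 (95% confidence interval -0.10 to 0.11) for Hmgcs1, 0.02 (-0.11 to 0.15) for Idi1, -0.06 (-0.15 to 0.04) for Sqle and -0.08 (-0.24 to 0.09) for Lss, all on the log2 scale. For Cyp51 it was -0.04 (-0.18 to 0.10), for Dhcr7 0.09 (-0.16 to 0.33), for Insig1 -0.05 (-0.22 to 0.12) and for Srebf2 0.09 (-0.14 to 0.31). The 8 intervals together span -0.24 to 0.33, and a mean shift inside a gene's own interval is not excluded for that gene. The members' median was -0.02 and that of all genes -0.01. By limma's test with Benjamini-Hochberg adjustment, 0 of 8 members passed, where 0% of all genes passed (1149 genes and 0 members had an unadjusted p under 0.05). The p-values measure the spread between these mice.

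**Figure D1:**
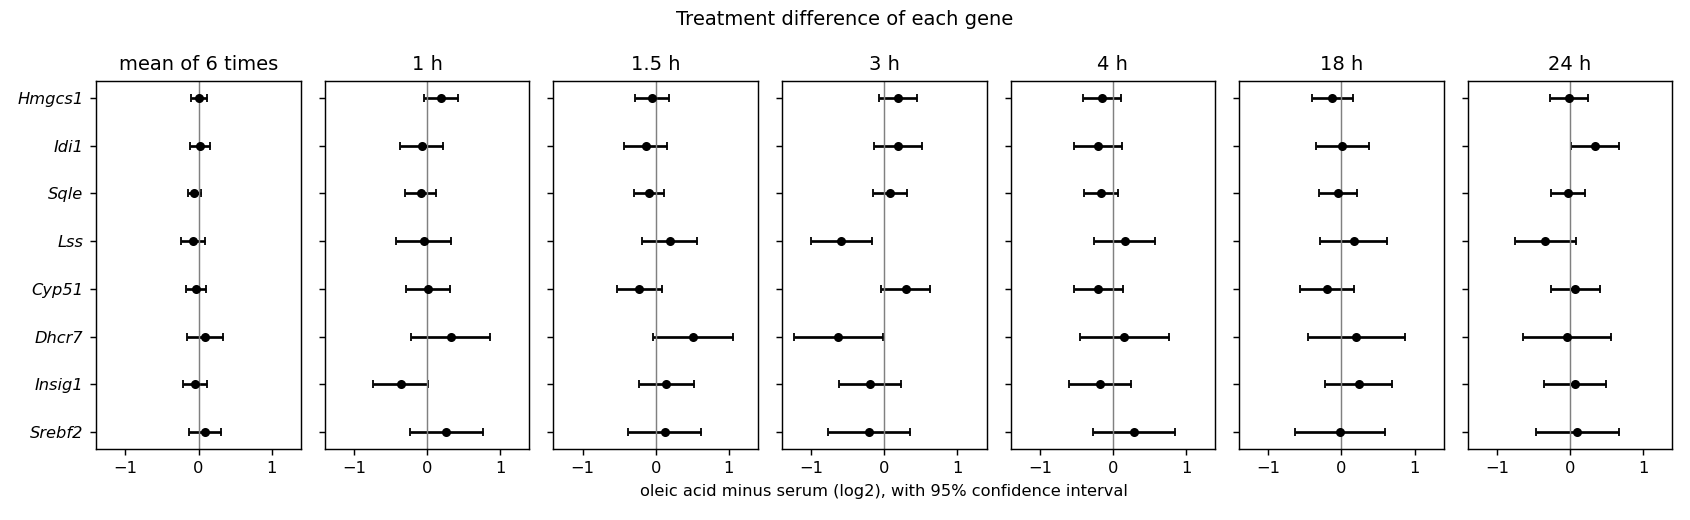
Oleic acid minus serum difference of each of the 8 genes (log2, x axis) as the mean of the 6 times and at each time; points are limma estimates and bars their 95% confidence intervals. Intervals of the mean effect all include 0 and stay between -0.24 and 0.33, and those of single times are wider.

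At single times some differences were larger, but each rests on few mice, and the members' confidence intervals reached up to 1.23 from 0. Of 48 tests of a member at a time, none passed the adjusted test, and 3 had an unadjusted p under 0.05: Lss and Dhcr7 at 3 h and Idi1 at 24 h. The shares of all genes that passed were 0% at 1, 1.5, 3, 18 and 24 h and 0.00397% at 4 h, which is 1 gene, while 1220, 1331, 1224, 1832, 1655 and 763 genes had an unadjusted p under 0.05. No member passed limma's F-test over the interaction either, which asks whether the treatment difference varied between times. The calls were 0 of 8 members and 0% of genes, with 0 members and 1370 genes at an unadjusted p under 0.05. The closest was Lss, whose 6 differences spanned 0.78 (unadjusted p = 0.056, limma adjusted p = 0.84). The median of the members' differences lay between -0.15 and 0.03 over the 6 times, against -0.04 to 0.02 for all genes.

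Groups that do not overlap were also counted. Values of the 2 treatments were fully apart for 1 member at 1 h (Insig1, lower after oleic acid) and 1 at 1.5 h (Dhcr7, higher), against 9.89% and 10.6% of all genes. At 3 h they were apart for 5 of 8 members against 17.7% of genes, with Hmgcs1 and Sqle higher and Lss, Dhcr7 and Insig1 lower. Dhcr7 was apart only just, with its nearest serum and oleic acid mice at 0.202 and 0.196. At 4 h Hmgcs1, Idi1 and Sqle were lower in all oleic acid mice than in both serum mice, which is 3 of 8 members against 18.1% of genes. Sqle was all but tied there, with its nearest serum and oleic acid mice at 3.3639 and 3.3637. At 18 h 2 members were apart (Hmgcs1 and Cyp51, lower) against 52.5%, with the treatments on different slides. Their nearest serum and oleic acid mice were close, at 5.085 and 5.062 for Hmgcs1 and -1.086 and -1.104 for Cyp51. At 24 h 3 were apart (Idi1 and Cyp51 higher, Lss lower) against 28.8%. Cyp51 was all but tied there, with its nearest serum and oleic acid mice at -1.430 and -1.424. No member was apart in the same direction at more than 1 time except Hmgcs1, lower at 4 and 18 h, Insig1, lower at 1 and 3 h, and Lss, lower at 3 and 24 h.

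**Figure D2:**
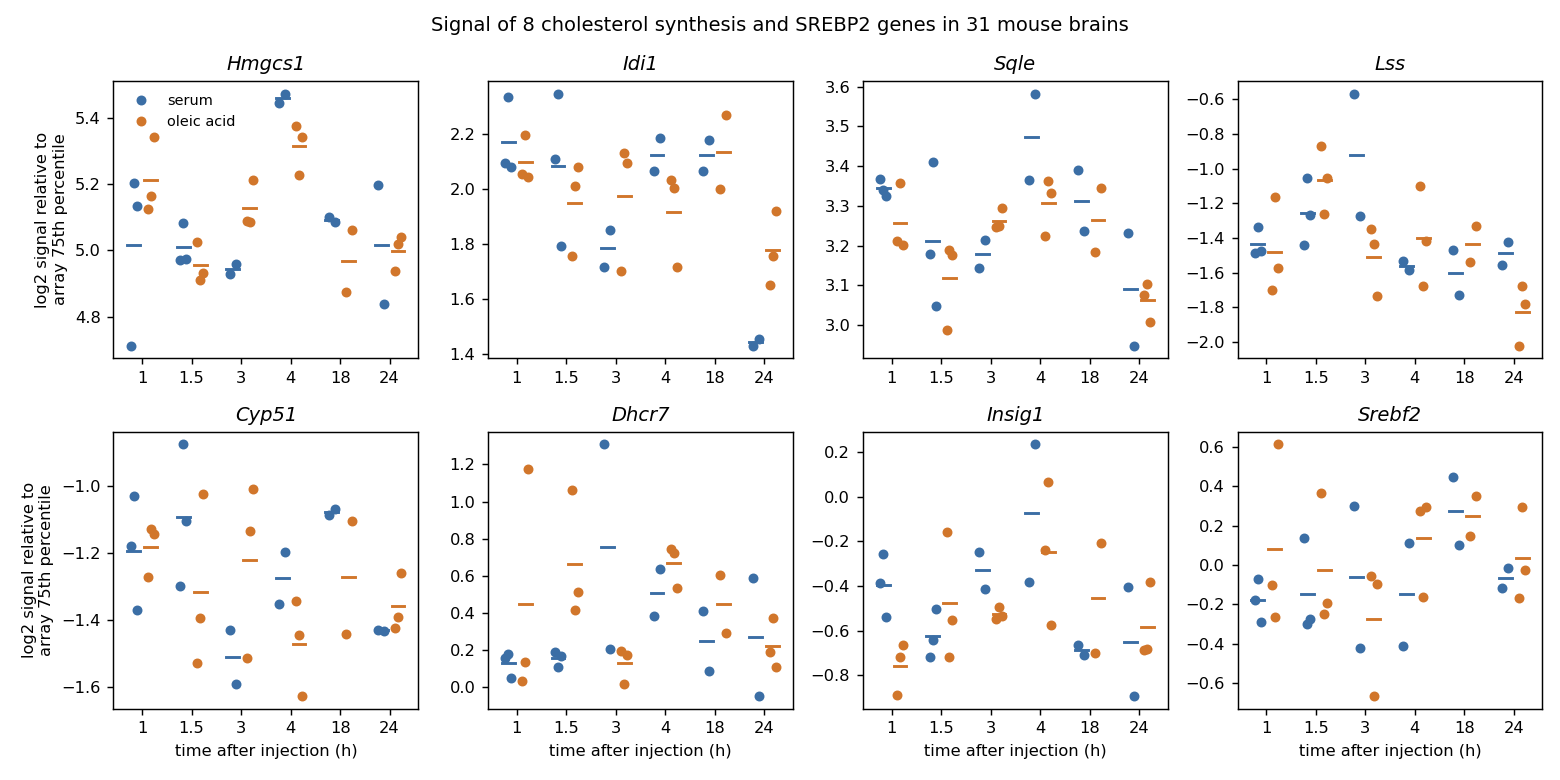
Log2 signal relative to the array's 75th percentile (y axis, own range per gene) of the 8 genes in 31 mice against time after injection; each point is 1 mouse, blue for serum and orange for oleic acid, and the bar is the group mean. Serum and oleic acid points overlap at most times, and Idi1 is lowest in the 2 serum mice at 24 h.

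Hmgcs1 encodes the cytosolic synthase that makes HMG-CoA, an early intermediate of the mevalonate route. In serum mice its log2 signal was 4.71, 5.20 and 5.13 at 1 h, 4.97, 5.08 and 4.97 at 1.5 h, and 4.93 and 4.96 at 3 h. It was 5.44 and 5.47 at 4 h, 5.10 and 5.09 at 18 h, and 5.20 and 4.84 at 24 h. After oleic acid it was 5.13, 5.16 and 5.34 at 1 h, 5.02, 4.91 and 4.93 at 1.5 h, 5.09, 5.09 and 5.21 at 3 h, 5.38, 5.23 and 5.34 at 4 h, 4.87 and 5.06 at 18 h, and 4.94, 5.02 and 5.04 at 24 h. Both treatments were thus highest at 4 h, and the 2 highest mice of all were the serum mice of that time. The treatment difference was 0.20 ± 0.11 (SE) at 1 h, 0.19 ± 0.13 at 3 h and -0.14 ± 0.13 at 4 h, none past the test (limma adjusted p from 0.92 to 1.00).

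Idi1 encodes the isomerase that interconverts the isoprenoid building blocks. In serum mice its log2 signal was 2.09, 2.34 and 2.08 at 1 h, 2.11, 2.35 and 1.79 at 1.5 h, and 1.72 and 1.85 at 3 h. It was 2.07 and 2.19 at 4 h, 2.06 and 2.18 at 18 h, and 1.43 and 1.45 at 24 h. After oleic acid it was 2.05, 2.20 and 2.04 at 1 h, 1.76, 2.01 and 2.08 at 1.5 h, 1.70, 2.13 and 2.10 at 3 h, 2.03, 2.01 and 1.72 at 4 h, 2.00 and 2.27 at 18 h, and 1.65, 1.76 and 1.92 at 24 h. The 24 h groups had the lowest mean in both treatments, and the serum pair lay below every other mouse. At 24 h the oleic acid mice were higher than the serum mice by 0.33 ± 0.16 (unadjusted p = 0.046, limma adjusted p = 0.75), with 3 of 3 above both.

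Sqle encodes squalene epoxidase, the first oxygen-dependent step of the sterol branch. It varied least of the 8, with a within-group SD of 0.11 and a full range from 2.95 in serum 24 h replicate 2 to 3.58 in serum 4 h replicate 2. The serum median was 3.28 and the oleic acid median 3.21. At 4 h it was 3.36 and 3.58 in serum mice and 3.22, 3.36 and 3.33 after oleic acid, and at 24 h it was 3.23 and 2.95 and then 3.07, 3.10 and 3.01. Its treatment differences lay between -0.17 ± 0.11 at 4 h and 0.08 ± 0.11 at 3 h, and their 95% intervals stayed between -0.40 and 0.32.

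Lss encodes lanosterol synthase, which closes the sterol rings. At 3 h its log2 signal was -0.57 and -1.27 in serum mice and -1.35, -1.44 and -1.74 in oleic acid mice. The groups did not overlap, and the first of these serum mice was the highest of all 31. The difference of -0.59 ± 0.20 had the smallest unadjusted p of any member at any time (limma unadjusted p = 0.0083, adjusted p = 0.94). Without that serum mouse it was -0.24 ± 0.23. At 24 h the signal was -1.56 and -1.42 in serum mice and -2.02, -1.68 and -1.78 in oleic acid mice, again without overlap, with a difference of -0.34 ± 0.20 (limma adjusted p = 0.75). At 1.5, 4 and 18 h the difference was above 0 (0.16 to 0.19).

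Cyp51 encodes the lanosterol demethylase. Its log2 signal ran from -1.63 in oleic acid 4 h replicate 3 to -0.87 in serum 1.5 h replicate 2, with medians of -1.25 in serum and -1.34 in oleic acid mice. The largest treatment difference was 0.29 ± 0.16 at 3 h, where the serum mice were at -1.43 and -1.59 and the oleic acid mice at -1.52, -1.13 and -1.01, so that the groups overlapped (limma adjusted p = 0.94).

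Dhcr7 encodes the reductase of the last step to cholesterol. It had the widest within-group spread of the 8, an SD of 0.33 against 0.23 for the median gene. At 1 h its log2 signal was 0.16, 0.18 and 0.05 in serum mice and 0.03, 0.14 and 1.18 after oleic acid, and at 1.5 h it was 0.19, 0.11 and 0.17 and then 1.06, 0.42 and 0.51. At 3 h it was 1.31 and 0.20 in serum mice and 0.20, 0.02 and 0.17 after oleic acid. At 4 h it was 0.38 and 0.63 in serum mice and 0.74, 0.72 and 0.53 after oleic acid. Single mice thus stood far above their group, and they were of either treatment. The difference was 0.51 ± 0.26 at 1.5 h (limma adjusted p = 0.92) and -0.63 ± 0.29 at 3 h (unadjusted p = 0.043, limma adjusted p = 0.94). Without the high serum mouse at 3 h it was -0.07 ± 0.32, and without the high oleic acid mouse at 1.5 h it was 0.31 ± 0.28.

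Those 3 mice also had dim arrays. The 75th percentile of intensity was 306 for oleic acid 1 h replicate 3, 334 for oleic acid 1.5 h replicate 1 and 422 for serum 3 h replicate 1, which rank 1, 2 and 4 from the dimmest of 31. The array ranked 3, serum 24 h replicate 1 at 376, had Dhcr7 at 0.59. The part of array brightness in these values was not tested.

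Insig1 encodes the endoplasmic reticulum anchor that retains SCAP. In serum mice its log2 signal was -0.39, -0.26 and -0.54 at 1 h, -0.72, -0.64 and -0.51 at 1.5 h, -0.25 and -0.41 at 3 h, -0.38 and 0.23 at 4 h, -0.66 and -0.71 at 18 h, and -0.41 and -0.89 at 24 h. After oleic acid it was -0.89, -0.72 and -0.67 at 1 h, -0.16, -0.72 and -0.55 at 1.5 h, -0.55, -0.49 and -0.53 at 3 h, -0.24, 0.07 and -0.58 at 4 h, -0.70 and -0.21 at 18 h, and -0.69, -0.68 and -0.38 at 24 h. At 1 h all 3 oleic acid mice lay below all 3 serum mice, which shared 1 slide with them. The difference was -0.36 ± 0.18 (unadjusted p = 0.060, limma adjusted p = 0.92), and it was 0.15 ± 0.18 at 1.5 h.

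Srebf2 encodes SREBP2 itself and is induced by it. Its log2 signal ran from -0.67 in oleic acid 3 h replicate 2 to 0.61 in oleic acid 1 h replicate 3, with medians of -0.09 in serum and -0.06 in oleic acid mice. At 3 h it was 0.30 and -0.42 in serum mice and -0.06, -0.67 and -0.10 after oleic acid, and at 4 h it was -0.41 and 0.11 and then 0.28, -0.16 and 0.30. No time had groups apart, and the differences lay between -0.21 ± 0.27 at 3 h and 0.29 ± 0.27 at 4 h. Its second probe, dimmer on every array, gave 0.11 ± 0.14 for the mean effect beside 0.09 ± 0.11 for the first. On the probes' own coordinates, in mm9, they start at 82034765 and 82030068 on chromosome 15.

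Between times, 1 of the 8 genes passed. Idi1 differed between times in serum mice (limma F-test, adjusted p = 0.030), with group means that spanned 0.73 on the log2 scale from 24 h, the lowest, to 1 h, the highest. Of all genes 10.4% passed in serum mice, so 1 member of 8 is near that background. In oleic acid mice 0 of 8 passed, against 7.03% of genes, and Idi1's means there spanned 0.36 (limma adjusted p = 0.42). Whether Idi1's course differed between the treatments was asked by the interaction test above, and it did not pass (limma adjusted p = 0.84).

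The time difference of Idi1 cannot be separated from the slides. With slide as a fixed term its means spanned 0.34 and the limma adjusted p was 1.00, and with slide as a random block they spanned 0.63 with an adjusted p of 0.21. Within slide 2, serum 24 h replicate 2 (1.45) lay 0.34 under serum 1.5 h replicate 3 (1.79). Within slide 5 the 3 oleic acid mice of 24 h had a mean of 1.78 and the 2 of 18 h a mean of 2.14. Within slide 4, serum mice at 4 h and 18 h had means of 2.13 and 2.12. The call was also lost without either serum mouse of 24 h (adjusted p = 0.11 and 0.099), without either of 18 h (0.059 and 0.053) and without serum 3 h replicate 1 (0.060). It was lost as well without the 4 arrays lowest in Gabra6 (0.073) and with dim probes kept (0.056). Beside this, the mean level of 8 astrocyte markers was 3.16 and 3.22 in the serum mice and 3.22 to 3.27 in the oleic acid mice of 24 h. It was 3.40 to 3.50 in serum mice of 1 h. In serum mice of 3 h it was 3.27 and 3.35, and in those of 18 h 3.30 and 3.37. The Idi1 means of these last 2 groups were 1.78 and 2.12. The part of astrocyte content in the Idi1 values was not tested.

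**Figure D3:**
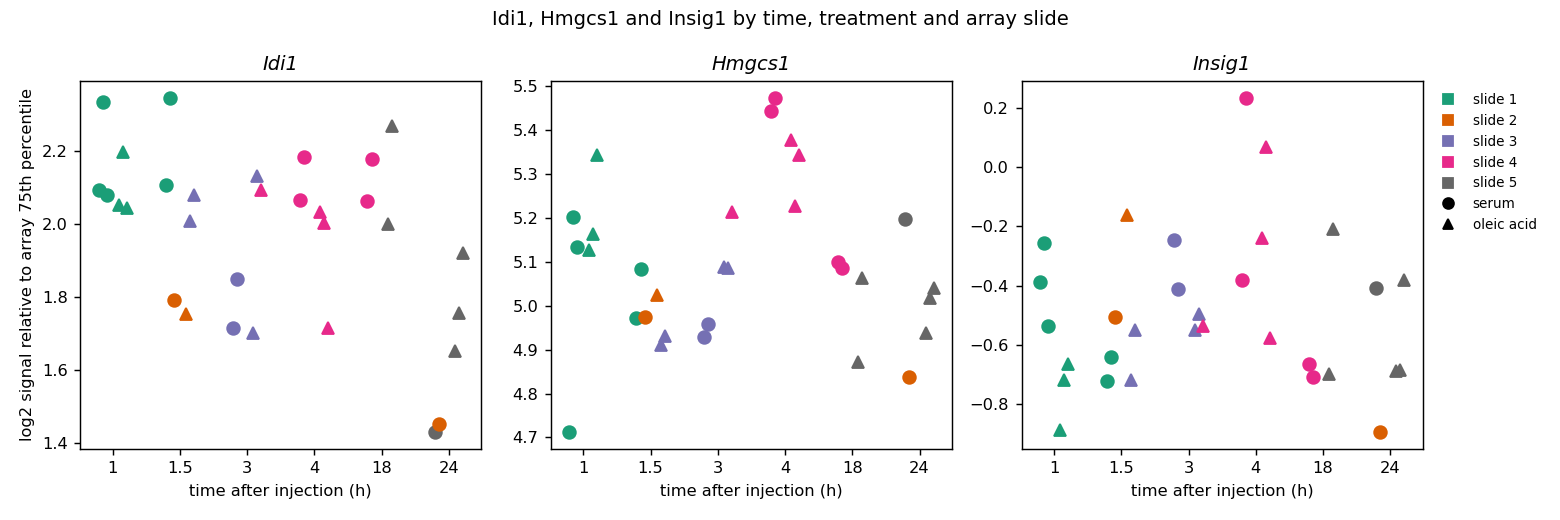
Log2 signal relative to the array's 75th percentile (y axis) of Idi1, Hmgcs1 and Insig1 against time after injection; each symbol is 1 mouse, circles for serum and triangles for oleic acid, coloured by array slide. The 24 h mice have the lowest Idi1 of each treatment's groups by mean, Hmgcs1 is highest at 4 h, and most times lie on 1 or 2 slides.

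The 3 contrasts of times, each over both treatments, gave no call among the members. For 3 and 4 h minus 1 and 1.5 h, 0 of 8 passed against 9.49% of genes. The smallest p-values there were those of Insig1, at 0.27 ± 0.10, and Hmgcs1, at 0.16 ± 0.06 (limma adjusted p = 0.083 for each). Cyp51 differed by -0.17 ± 0.08 (0.16) and Dhcr7 by 0.17 ± 0.14 (0.46), and 3 members had an unadjusted p under 0.05 where 6711 genes did. For 18 and 24 h minus 1 and 1.5 h, 0 of 8 passed against 11.2% of genes. Lss differed by -0.28 ± 0.10 (limma adjusted p = 0.070) and Idi1 by -0.21 ± 0.08 (0.088), and 2 members and 6576 genes had an unadjusted p under 0.05. For 18 and 24 h minus 3 and 4 h, 0 of 8 passed against 12.7% of genes, with 4 members and 6876 genes at an unadjusted p under 0.05. Hmgcs1 differed by -0.19 ± 0.06 (limma adjusted p = 0.051), Insig1 by -0.30 ± 0.10 (0.063), Lss by -0.24 ± 0.10 (0.13) and Sqle by -0.12 ± 0.06 (0.17). Both Hmgcs1 and Insig1 passed with normexp background correction (adjusted p = 0.010 and 0.022) and neither with slide as a fixed term (0.33 and 0.18), where the differences were larger, at -0.45 ± 0.19 and -0.96 ± 0.30. Within slide 4, serum mice at 18 h minus those at 4 h differed by -0.37 for Hmgcs1 and -0.61 for Insig1, from 2 mice each.

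The same contrasts within 1 treatment gave 0 calls of 8 as well, by limma's adjusted test. For 3 and 4 h minus 1 and 1.5 h the background was 2.16% of genes in serum mice and 1.11% in oleic acid mice, and 4 and 0 members had an unadjusted p under 0.05. The 4 in serum mice were Dhcr7 (0.49 ± 0.21), Insig1 (0.31 ± 0.14), Hmgcs1 (0.19 ± 0.09) and Cyp51 (-0.25 ± 0.12), beside -0.16 ± 0.18, 0.23 ± 0.13, 0.14 ± 0.08 and -0.10 ± 0.10 in oleic acid mice. For 18 and 24 h minus 1 and 1.5 h it was 4.78% and 0.676%, and 1 member in each had such a p: Idi1 in serum mice (-0.34 ± 0.11, against -0.07 ± 0.11 after oleic acid) and Lss in oleic acid mice (-0.36 ± 0.14, against -0.20 ± 0.14 in serum mice). For 18 and 24 h minus 3 and 4 h it was 3.84% and 5.31%, again with 1 member each, Insig1 in serum mice (-0.47 ± 0.16, against -0.13 ± 0.14) and Hmgcs1 in oleic acid mice (-0.24 ± 0.08, against -0.15 ± 0.10). Whether these contrasts differ between the treatments was tested only through the F-test over all times above.

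The 8 mRNAs did not move as one from mouse to mouse. Of 28 pairs, 4 had a Pearson r over 0.5 across the 31 arrays, 10 were below 0, and the median was 0.12. These arrays share slides and times, so r is also given for deviations from the group mean, and neither is a test. Idi1 and Cyp51 had the highest r, 0.71 over arrays and 0.75 within groups. Dhcr7 and Srebf2 followed within groups at 0.72, with 0.60 over arrays. Idi1 with Sqle had 0.62 and 0.48, and Hmgcs1 with Sqle 0.53 and 0.21. Cyp51 and Dhcr7 had the lowest r over arrays, -0.29. The 3 mice with high Dhcr7 were also high in Srebf2, at 0.61, 0.37 and 0.30, and on its second probe, at -1.32, -1.14 and -1.11 where that probe's mean was -1.89.

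**Figure D4:**
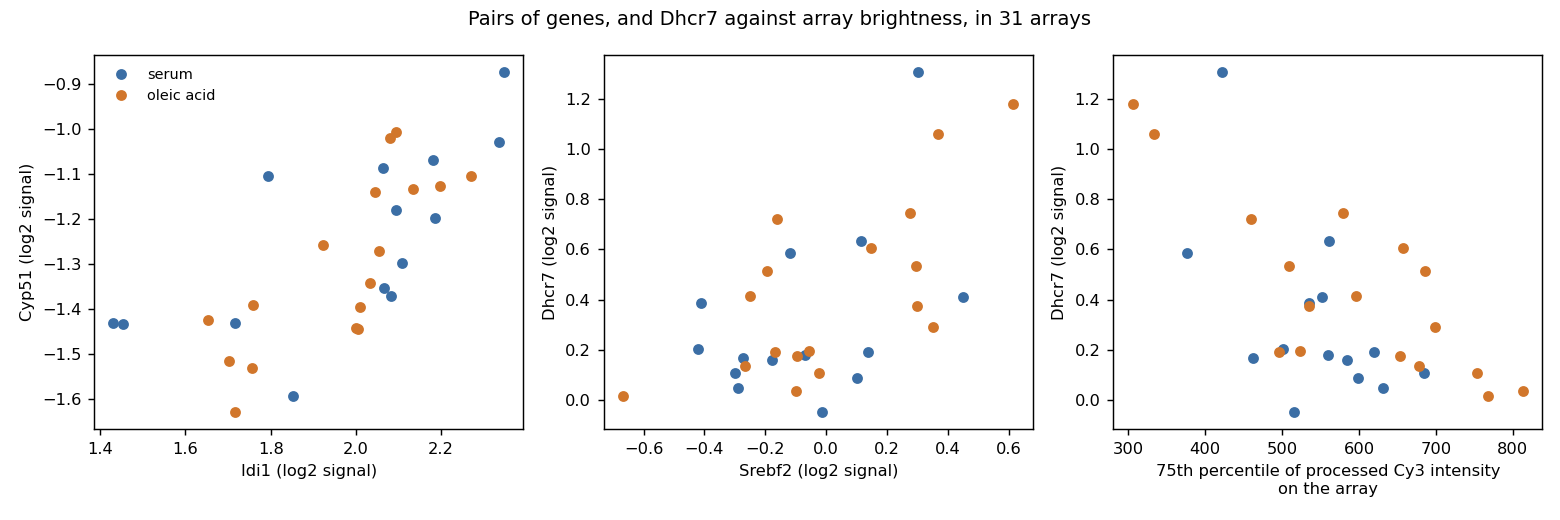
Cyp51 against Idi1 and Dhcr7 against Srebf2 (log2 signals), and Dhcr7 against the 75th percentile of intensity of its array; each point is 1 of 31 arrays, blue for serum and orange for oleic acid. The first pair has r = 0.71 and the second 0.60, and the 3 highest Dhcr7 values are on arrays at 306, 334 and 422.

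The mean profile of the 8, each scaled to its own spread, was among the most like those of Disp2 (r = 0.75 over 31 arrays), Msmo1 (0.75), Slc35a2 (0.71), Mxd1 (0.71), Serinc5 (0.70), Map2k6 (0.69), Emc1 (0.69), Xrcc3 (0.68) and Polr2b (0.67). Msmo1, the sterol methyl oxidase that acts downstream of Cyp51, is the one gene of the pathway lists among those named. Its r within groups was 0.59. They come from the 10 highest of the genes tested, leaving out clone-type and predicted-gene names. They were picked for their r and are a description. Single members had other nearest neighbours, none of them in the pathway lists. They were Fam78b for Idi1 (0.88), Ndufs5 for Sqle (0.88), Ccnt1 for Dhcr7 (0.91), Map3k10 for Srebf2 (0.88), Fbxl18 for Lss (0.83), Sesn1 for Hmgcs1 (0.80), Amd2 for Cyp51 (0.80) and Kansl1 for Insig1 (0.67).

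The rest of the pathway was read from 3 lists: 14 other synthesis enzymes, 11 genes of SREBP processing and further targets, and 13 genes of efflux, esterification and turnover, of which 12 were measured and Lpcat3 was not. For treatment, 0 of 14, 0 of 11 and 0 of 12 passed for the mean effect and at each of the 6 times. The medians of the mean effect were -0.03, -0.01 and -0.01, where that of all genes was -0.01. The smallest unadjusted p for the mean effect in each list belonged to Ebp, a sterol isomerase, at -0.17 ± 0.07, Erlin2, an endoplasmic reticulum protein that takes part in sterol control, at 0.09 ± 0.06, and Soat1, which esterifies cholesterol, at -0.23 ± 0.07, none past the test (limma adjusted p = 1.00 for each). At 1 h Soat1 differed by -0.56 ± 0.16 (limma adjusted p = 0.61) and Hsd17b7, a sterol ketone reductase, by -0.69 ± 0.23 (0.88).

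**Figure D5:**
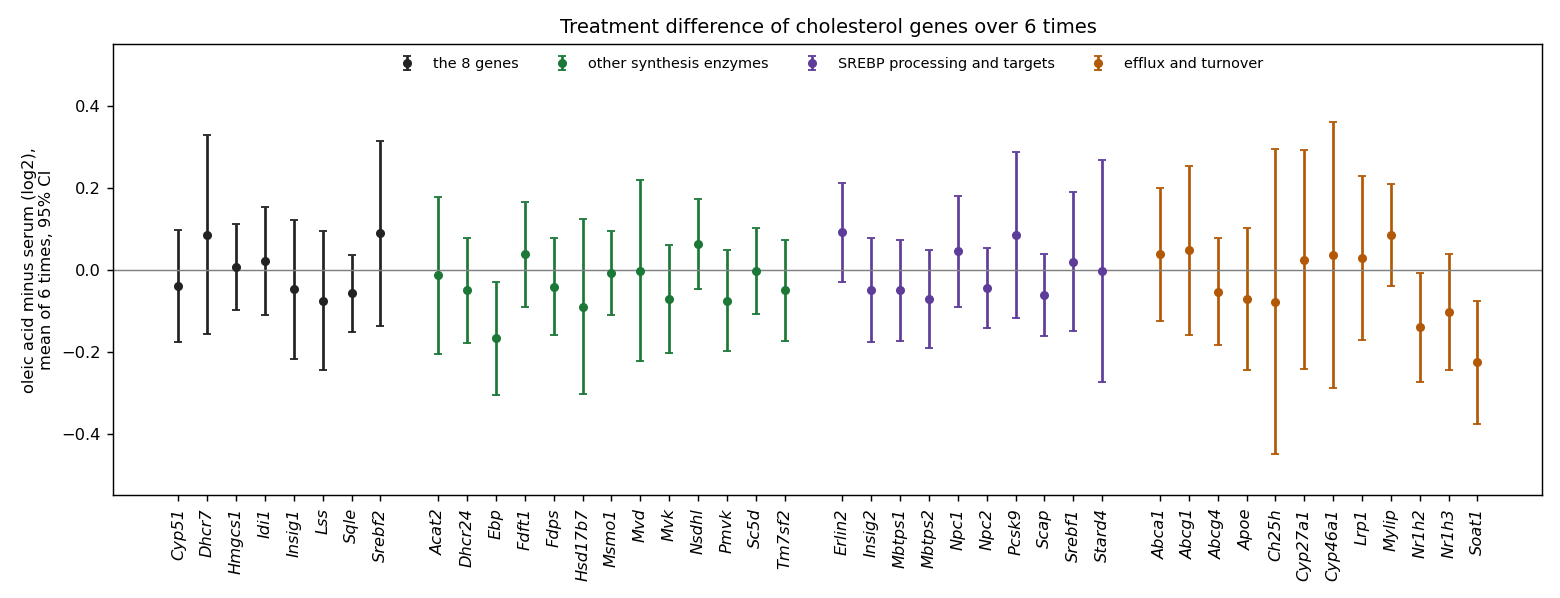
Oleic acid minus serum difference over 6 times (log2, y axis) for the 8 genes and genes of the 3 pathway lists; points are limma estimates and bars 95% confidence intervals. Most intervals include 0, those of Ebp, Nr1h2 and Soat1 lie below it, and none of these passed the adjusted test.

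Between times, a few genes of these lists passed, at shares at or near those of all genes. In serum mice 1 of 14 synthesis enzymes, 1 of 11 regulation genes and 0 of 12 efflux and turnover genes differed between times, where 10.4% of all genes did. The enzyme was Msmo1 (means spanning 0.66, limma adjusted p = 0.039). Msmo1 was 4.10 and 4.39 in serum mice at 4 h and 3.63 and 3.53 at 24 h, where its oleic acid mice were at 3.66, 3.67 and 3.75. In oleic acid mice 1 of 14 synthesis enzymes and no gene of the other lists passed, where 7.03% of all genes did. This was Mvk, the mevalonate kinase (0.60, limma adjusted p = 0.049), with 3.16, 3.13 and 3.36 at 4 h. Of 44 alternative settings, described with the processing below, 23 kept the call of Msmo1 and 13 that of Mvk. With slide as a fixed term neither passed (adjusted p = 0.67 and 0.99), while the means spanned 0.42 for Msmo1 and 0.64 for Mvk.

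The contrasts over both treatments called a few genes of each list, which over the 3 lists is near the shares of all genes. For 3 and 4 h minus 1 and 1.5 h these were 1 of 14 synthesis, 3 of 11 regulation and 1 of 12 efflux and turnover genes, against 9.49% of all genes. The same counts at 18 and 24 h were 2, 2 and 2 against 1 and 1.5 h, where 11.2% of all genes passed, and 2, 1 and 1 against 3 and 4 h, where 12.7% did. At 3 and 4 h against 1 and 1.5 h Ch25h, which makes 25-hydroxycholesterol, rose by 1.01 ± 0.21 (limma adjusted p = 0.0047) and Mvk by 0.26 ± 0.08 (0.033). Npc2, which moves sterol out of lysosomes, rose by 0.23 ± 0.05. Mbtps2, a protease that releases SREBP, rose by 0.22 ± 0.07 and Srebf1 fell by 0.31, both just past the test (limma adjusted p = 0.048 and 0.047). Of the 44 alternative settings, 42 kept the call of Ch25h, 40 that of Npc2 and 30 that of Mvk. Only 13 kept that of Mbtps2 and 12 that of Srebf1. At 18 and 24 h against 1 and 1.5 h Msmo1 fell by 0.21 and Stard4, a sterol carrier, fell by 0.54 (limma adjusted p = 0.027 and 0.029). Erlin2 fell by 0.23 there (limma adjusted p = 0.042), a call kept under 24 of 44 alternative settings. Nr1h3, the sterol receptor LXR alpha, rose by 0.34 ± 0.08. Mylip, a ubiquitin ligase induced by LXR, rose by 0.31 ± 0.07 on the probe that stood for it, while its other probe gave -0.46 ± 0.25. At 18 and 24 h against 3 and 4 h Msmo1 fell by 0.28, Mvk fell by 0.26 and Erlin2 fell by 0.25, and Nr1h3 rose by 0.37 ± 0.09. With slide as a fixed term none of these differences passed, the smallest adjusted p being 0.37 for Nr1h3. The estimates did not all shrink in that fit. Against 1 and 1.5 h, Ch25h was at 1.45 (3 and 4 h), Mylip at 0.62 and Msmo1 at -0.22 (18 and 24 h), and Nr1h3 was at 0.57 against 3 and 4 h. Others came near 0. Against 1 and 1.5 h, Mbtps2 was at 0.02, Mvk at 0.06 and Srebf1 at -0.07 (3 and 4 h). Stard4 was at -0.03 and Erlin2 at -0.05 (18 and 24 h) against those times. For 18 and 24 h against 3 and 4 h, Erlin2 was at 0.0035. Mvk did not shrink in that contrast, at -0.34 beside -0.26 without the slide term.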

How the data were processed

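RNA of 31 mouse brains was measured on Agilent single-colour (Cy3) arrays, with 200 ng of RNA labelled per sample. The authors used Agilent Feature Extraction, version 10.5.1.1 per the submitters' processing notes. The deposited array files hold Cy3 intensity per spot as mean, background and processed signal, with no normalization between arrays, and quality flags of 0 or 1, an other kind of value per the file headers. The values in the table that the authors deposited are log2 signals. Against each array's log2 mean signal it correlated at 0.998 to 1.000, and its centring is not given in the sources used here.

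Processed intensities were taken as log2 minus the array's 75th percentile over spots that are not controls. Spots marked non-uniform were dropped, repeats of a probe were averaged, and saturation did not occur. Of 55681 probes, 35487 stayed: those detected clearly above background throughout 1 group or more and measured on all 31 arrays. The brightest probe stood for a gene, giving 25162 genes. Current symbols came from RefSeq (GRCm38.p6) by accession for 26582 probes, otherwise by symbol or a unique synonym. In all, 29676 of the 55681 probes had a current symbol, and the rest kept the name in the array file. The genes tested can thus include clone-type names and the like. Limma 3.58.1 in R 4.3.3 fitted 12 group means with 19 residual degrees of freedom, and adjusted p under 0.05 over all genes counted as passing. F-tests are summarised by the span of the group means, or of the differences. The steps were tested on simulated data. The number of arrays and signal over background limit the precision.

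The 8 genes and the gene and marker lists were chosen with earlier results of these data known. Members were named in each comparison. From each pathway list up to 4 passing genes, or else up to 2 with the smallest unadjusted p, could be named, and some are not reported here. Alternatives were normexp background correction (offset 50), quantile normalization, median scaling, the value table, keeping dim probes, a minimum of 24 arrays above background, the mean of a gene's probes, slide as a fixed or random block, a replicate block, eBayes with trend and robust options, and each mouse left out. Leaving out the 4 arrays low in Gabra6, and leaving out slide 2, were added after seeing the data.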

Additional observations from a re-analysis of the deposited data

How the results depend on the processing

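No member passed the treatment test, at any time, for the mean effect or for the interaction, under any alternative run, which makes 0 calls in 2816 results of a member under an alternative. Over all 13 comparisons, 4533 of 4576 such results kept their side of the threshold, 34 newly passed, 9 no longer passed and none that passed reversed, while 104 that never passed changed sign. For time in serum mice the count of members called was 1, and it was 0 with no filter, with slide as a block (fixed or random) or without the arrays low in Gabra6. For time in oleic acid mice it was 1 with normexp and 0 otherwise. For 3 and 4 h minus 1 and 1.5 h it was 1 with normexp, the value table or without slide 2 (Insig1 each time). For 18 and 24 h minus 1 and 1.5 h it was 1 with the value table (Lss), the replicate block or without slide 2 (Idi1 for both). For 18 and 24 h minus 3 and 4 h it was 2 with normexp (Hmgcs1 and Insig1) and 1 with the value table (Insig1), and with the filter of 24 arrays, the mean of probes or the trend and robust options (Hmgcs1). With 1 mouse left out the counts ran from 0 to 2, 0 to 0, 0 to 1, 0 to 1 and 0 to 2 in these 5 comparisons. Hmgcs1 joined Idi1 for time in serum mice without serum 1 h replicate 1. For 3 and 4 h minus 1 and 1.5 h, Hmgcs1 passed without oleic acid 1 h replicate 3, and Insig1 without oleic acid 1.5 h replicate 1, serum 4 h replicate 1 or oleic acid 4 h replicate 3. Idi1 passed for 18 and 24 h minus 1 and 1.5 h without serum 1.5 h replicate 3 or oleic acid 1.5 h replicate 1, and Lss without either serum mouse of 3 h. Against 3 and 4 h, the late times passed in Hmgcs1 without serum 1 h replicate 1 or 2, oleic acid 1 h replicate 3 or oleic acid 4 h replicate 2, in Insig1 without serum 4 h replicate 1, oleic acid 4 h replicate 3 or oleic acid 18 h replicate 2, in both without oleic acid 1.5 h replicate 1 or serum 24 h replicate 1, and in Lss without serum 3 h replicate 2. The cause was not tested. With slide as a fixed block the genes called for time in serum mice went from 2627 to 125. In oleic acid mice they went from 1769 to 35. The contrasts against 1 and 1.5 h went from 2389 to 3 and 2817 to 32. Treatment calls over all genes rose in that fit, from 0 in each case. They came to 35 for the mean effect, 30 at 1.5 h, 80 at 24 h and 38 for the interaction, with no member among them. Median scaling moved the median of all genes to 0.13, -0.19 and -0.18 in the treatment differences at 3, 4 and 18 h. Replicate numbers were not treated as pairs in the main fit, and whether they pair the mice was not settled. Same-numbered mice of a time correlated in their deviations at -0.62 to 0.39 (median -0.02, 14 pairs), others at -0.52 to 0.64. In groups of 2 mice the deviations mirror each other, so these correlations cannot decide it. With the replicate block Idi1 had an adjusted p of 0.018 for time in serum mice and 0.050 for 18 and 24 h minus 1 and 1.5 h. Groups of 2 or 3 mice limit single times: their 95% intervals reached up to 1.23 from 0.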
